A study of Mus musculus with 2 samples.

Results

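The 10 genes described here are members of the Bcl2 family of survival and death genes, chosen by symbol from the 32286 features measured. Mcl1, Bcl2, Bcl2l1, Bcl2a1a, Bcl2a1b and Bcl2a1d encode survival proteins, and Bcl2l11, Bax, Bbc3 and Pmaip1 encode proteins that promote cell death. Their transcripts were counted in single cells of mouse bone marrow in 2 libraries, 1 per genotype. The control was Mx1Cre+/-;Rosa26+/+, and the MYC library was Mx1Cre+/-;Rosa26LSL-MYC/LSL-MYC, in which Cre removes a stop cassette (LSL) so that MYC is expressed from the Rosa26 locus. Both genotypes carry Mx1Cre, a Cre recombinase under an interferon-inducible promoter that is active in blood stem cells and also in other interferon-responsive cells. The study set out to compare bone marrow blood cells after MYC was overexpressed in hematopoietic stem cells. The labels used here give no age, strain, time after induction or number of animals behind a library.

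Cells die by the mitochondrial route when BAX and its relative BAK form pores in the outer mitochondrial membrane and release cytochrome c. Survival proteins such as MCL1, BCL2, BCL-XL (from Bcl2l1) and A1 (from the Bcl2a1 genes) hold these pore formers in check, and BH3-only proteins such as BIM (from Bcl2l11), PUMA (from Bbc3) and NOXA (from Pmaip1) bind and neutralise them. Cells differ in the survival protein they depend on, neutrophils leaning on MCL1 and A1, lymphocytes on BCL2 and maturing red cells on BCL-XL, and MYC is known to make cells more sensitive to apoptosis.

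The matrices held 17073 control and 14496 MYC library barcodes, of which 14760 and 12645 were kept as cells, with a median of 5321.5 and 6014 UMIs (unique molecular identifiers, which count captured transcripts). The libraries shared 97 barcode names. The feature named MYC had 0 UMIs in control cells, an upper limit of 0.0308 CPM (UMIs of a gene per 1000000 UMIs), and 295 in the MYC library, which is 2.87 CPM, with 158 of them in mature neutrophils. Xist was found in both libraries and Ddx3y in neither. Clusters of cells were given 16 names from marker genes, and 10 of these classes had at least 100 cells in each library and were compared: stem or multipotent progenitors (187 control and 167 MYC library cells), granulocyte progenitors (534 and 495), immature neutrophils (1975 and 2044), mature neutrophils (4302 and 3446), monocytes (1226 and 1600), MHC class II-high cells (240 and 180), mature B cells (500 and 143), T or NK cells (392 and 154), erythroid cells (1451 and 593) and basophils or mast cells (190 and 151). Macrophages numbered 19 and 653, and B progenitors 478 and 18, so that neither was compared.

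A level is a gene's UMIs in all cells of a class and library, in CPM, and a difference is the log2 ratio of the MYC library to the control. The cells of the 2 libraries are called control cells and MYC cells. Levels and differences are given with 95% intervals, exact Poisson for a level and exact conditional binomial for a ratio, which cover counting error only. With 1 library per genotype there was no replicate and no test, so genotype and library cannot be told apart. A gene was called higher or lower in the MYC library where its ratio was at least 1.5-fold with an interval that excluded 1, among genes with at least 50 UMIs over both libraries. A changed mixture of cells within a class and a changed number of transcripts per cell cannot be told apart in such a level. Levels are not compared between genes.

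Of the 100 pairs of a member and a class, 68 reached 50 UMIs: 17 were called higher, 14 lower and 37 not called. Scaling each class by the median ratio of its genes in place of total UMIs gave 22 higher and 11 lower. The share of all genes under that scaling is not given, so those counts have no background here. For the 17 and 14 calls by total UMIs, the background is the share of all genes called in the same way. Of the tested members, stem or multipotent progenitors had 1 of 6 higher and 1 lower, against 5.34% and 9.93% of all genes. Granulocyte progenitors had 3 of 7 higher and 1 lower (background 4.25% and 24.2%), immature neutrophils 3 of 7 and 3 (7.35% and 16.5%), and mature neutrophils 1 of 9 and 3 (7.62% and 20.3%). The shares were 1 of 9 and 0 in monocytes (8.3% and 15.8%) and 1 of 9 and 1 in MHC class II-high cells (14.5% and 15.2%). In lymphoid cells they were 2 of 5 and 0 in mature B cells (5.9% and 18.4%) and 2 of 6 and 2 in T or NK cells (9.32% and 8.6%). Erythroid cells had 2 of 6 higher and 2 lower (14.5% and 13.4%), and basophils or mast cells 1 of 4 and 1 (7.9% and 18.4%). Over the 3 classes of the neutrophil lineage together, 4 of 9 were higher and 3 lower (4.83% and 20.3%), and over all kept cells 5 of 10 and 2 (8.02% and 21.5%). With 4 to 9 members tested in a class, these counts are small, and the calls fell unevenly: Bax accounted for 10 of the 17 higher calls, and Bcl2, Bcl2l1 and Bcl2l11 for 12 of the 14 lower calls.

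**Figure D1:**
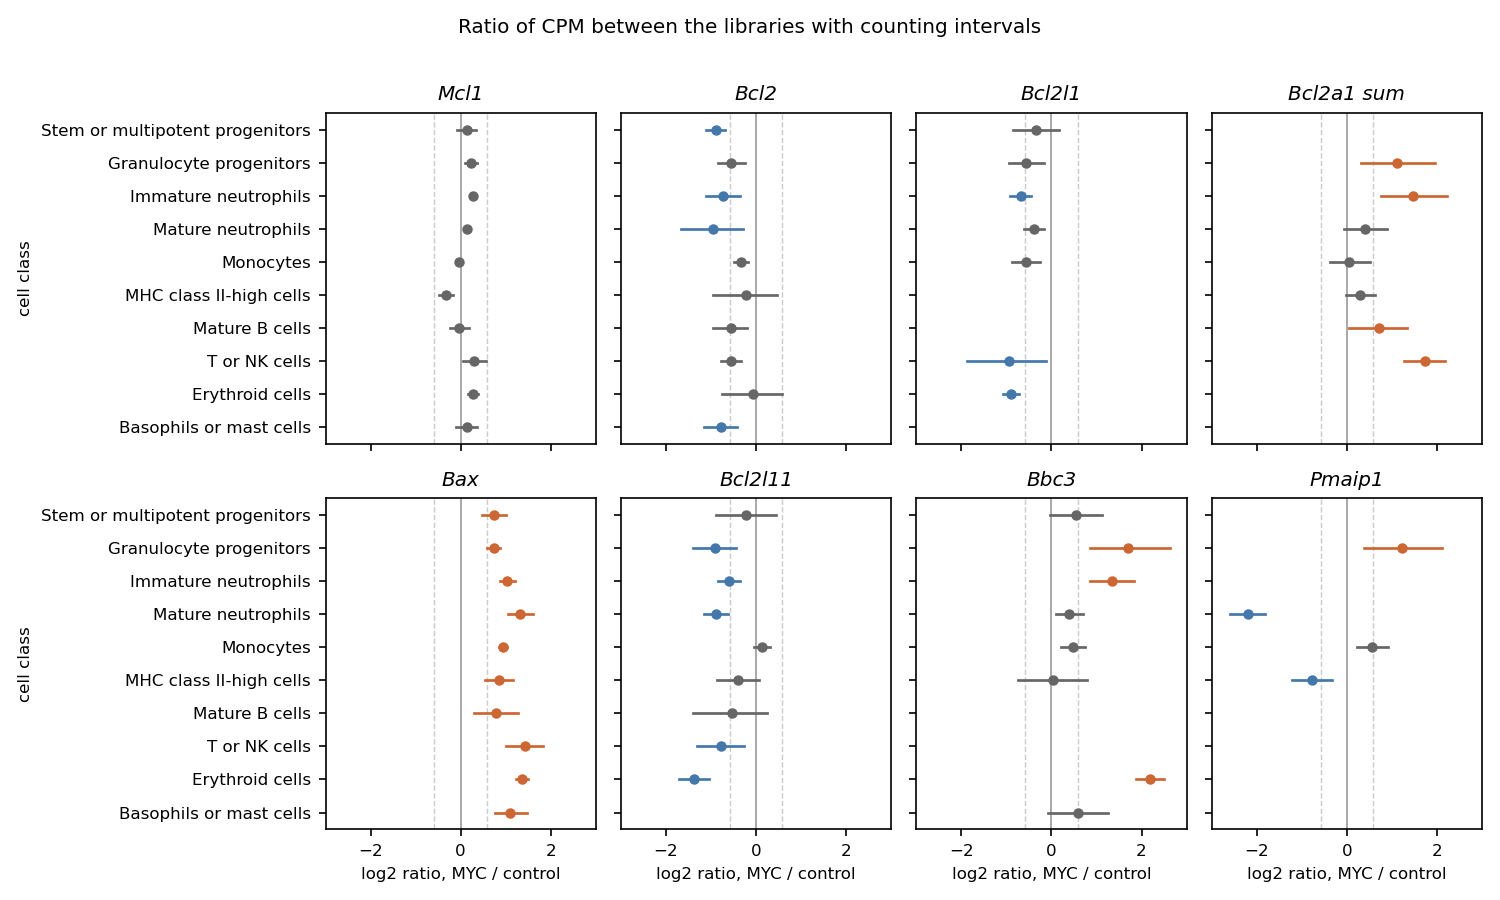
Log2 ratio of the MYC library to the control (x axis) in the 10 compared classes, with 95% counting intervals. Each panel is a gene, with the Bcl2a1 genes summed. Colours mark pairs called higher, called lower or not called, and pairs too low to test are left out. The Bax points lie between 0.73 and 1.42, all above 0, the Bcl2 points all lie below 0, and the Mcl1 points lie between -0.33 and 0.31.

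Mcl1 (ENSMUSG00000038612, GRCm38 chromosome 3, 95658788 to 95663176, plus strand), which encodes a short-lived survival protein, was highest in mature neutrophils in both libraries. Its level there was 583 CPM in control cells and 645 CPM in MYC cells. In granulocyte progenitors, the class with its lowest level, it was 79.8 and 93.7 CPM. Mature neutrophils thus held 7.31 times (interval 6.82 to 7.84) the progenitor level in the control and 6.89 times (6.44 to 7.38) in the MYC library. Immature neutrophils lay between, at 125 and 152 CPM. Among the 4 clusters of mature neutrophils the level varied further: cluster 1, led by Mmp8 and Mmp9, held 297 and 395 CPM, and cluster 2, led by Il1b and Ptgs2, held 1044 and 1075 CPM. Mcl1 was not called in any of the 10 classes. Its log2 ratio ranged from -0.33 in MHC class II-high cells (422 and 335 CPM) to 0.31 in T or NK cells (165 and 204 CPM), and it was above the median of all genes in 9 of 10 classes. In the MYC library late erythroid cells (cluster 6) held 97.1 CPM against 44.6 CPM in the control, the one cluster of 26 tested where Mcl1 was called higher, and macrophages, at 467 and 273 CPM, were the one called lower. Of the 13 pairs of neighbours in the order of the 14 classes with at least 100 control cells, the intervals of 6 overlapped.

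**Figure D2:**
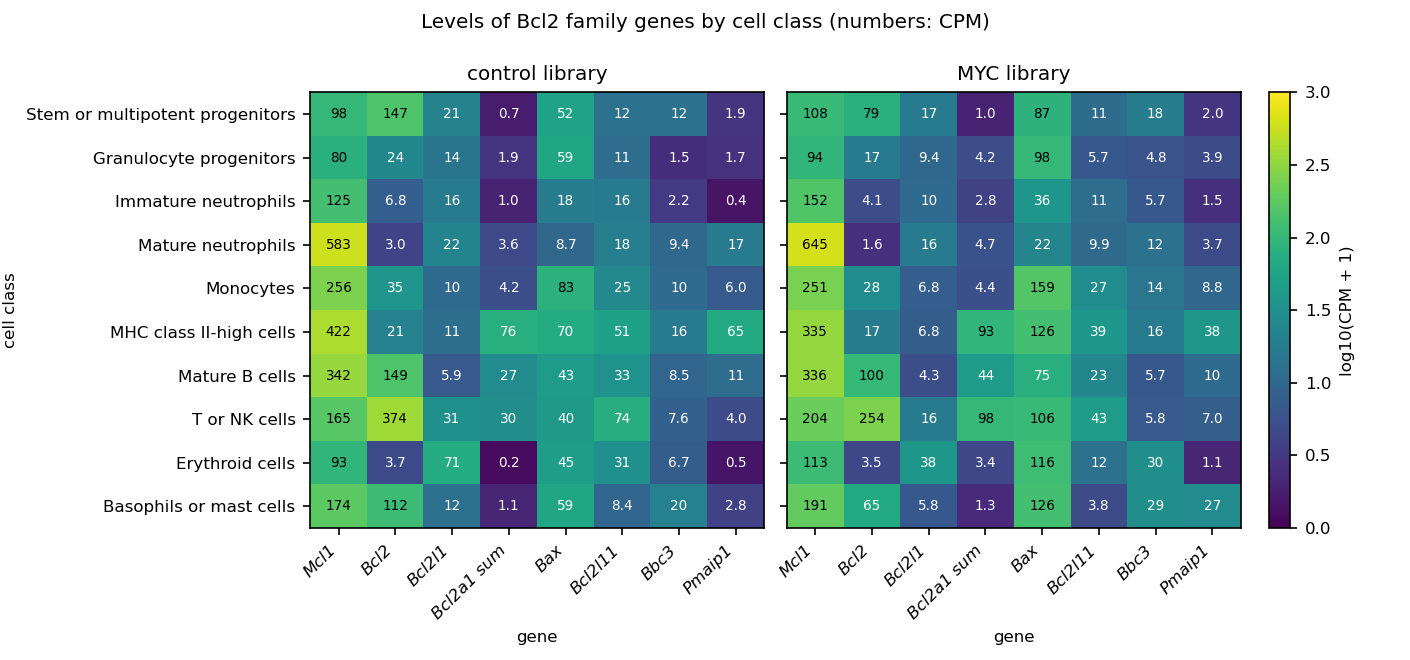
Level in CPM (log colour scale) in the 10 compared classes (rows) of the control and the MYC library. Each column is a gene, with the Bcl2a1 genes summed. Mcl1 is highest in mature neutrophils and Bcl2 in T or NK cells. Macrophages, which were not compared, are not drawn. Columns should not be compared with each other because the values are not per length.

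Bcl2 (ENSMUSG00000057329, chromosome 1, 106538178 to 106714274, minus strand) ran opposite to Mcl1 along the neutrophil series, from progenitors to mature cells. It was highest in T or NK cells, at 374 CPM in control cells and 254 CPM in MYC cells, and lowest in mature neutrophils, at 3.04 and 1.56 CPM. Stem or multipotent progenitors held 146.6 CPM in the control, 48.3 times (36.8 to 64.5) the level of mature neutrophils, and granulocyte progenitors 24.2 CPM. Monocytes, at 35.3 CPM, were above granulocyte progenitors for Bcl2 (1.46 times, 1.26 to 1.69) as well as for Mcl1 (3.21 times). Mature B cells held 148.5 CPM against 11.3 CPM in B progenitors of the control, 13.1 times as much (9.57 to 18.4). The order of the 10 classes was nearly the same in both libraries (Spearman rho 0.99, a description over classes that share each library), and 6 of 13 neighbouring pairs in the control order had overlapping intervals. In the GENCODE annotation Bcl2 overlaps the microRNA gene Mir3473f and Gm37053 on the same strand, and an antisense gene, D630008O14Rik. The strand setting of the counting is not given in the sources used here.

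The level of Bcl2 was below the control in all 10 classes of the MYC library and was called lower in 4. In 3 classes that were not called the sign depended on the setting, with log2 ratios up to 0.46 in erythroid cells, 0.19 in monocytes and 0.08 in MHC class II-high cells, the latter pair where a 5% limit on mitochondrial UMIs was set. In stem or multipotent progenitors it was 146.6 CPM in control cells and 78.6 CPM in MYC cells, with a log2 ratio of -0.90 (-1.12 to -0.68), and this call was kept in all 14 alternative settings that gave it a value. In basophils or mast cells it was 112 and 64.7 CPM, a log2 ratio of -0.78 (-1.15 to -0.43). The other calls rested on low levels: immature neutrophils had 6.79 and 4.08 CPM (-0.73), and mature neutrophils 57 and 29 UMIs (-0.96). The call in mature neutrophils was lost in 5 of 15 settings, and its ratio ran from -2.59 in cluster 1 alone, where it had 31 and 5 UMIs, or 3.57 (2.42 to 5.06) and 0.59 CPM (0.19 to 1.38), to -0.03 at a Leiden resolution of 0.5. That in immature neutrophils was lost in 3 of 15, with ratios from -0.52 to -0.34, and that in basophils or mast cells in 2 of 16, at -0.47 with doublets removed at the expected rate and -0.38 against genes of like length. T or NK cells (-0.55) and mature B cells (-0.56) had intervals below 0 but did not reach the fold, and erythroid cells, at 3.67 and 3.49 CPM, had -0.07 (-0.77 to 0.58). Calls were also gained. With a 5% limit on mitochondrial UMIs mature B cells (-1.30) and T or NK cells (-0.62) were called lower, as in several other settings. With each cell classified by markers alone monocytes (-0.95) and MHC class II-high cells (-0.90) were called lower. Erythroid cells were with doublets kept (-0.71), and granulocyte progenitors with doublets removed at the expected rate (-0.61).

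Bcl2l1 (ENSMUSG00000007659, chromosome 2, 152780668 to 152831728, minus strand), the gene of BCL-XL, was a gene of the erythroid and megakaryocyte line and of B progenitors in these cells. In the control it was 265 CPM in megakaryocytes, 73.6 CPM in B progenitors and 70.9 CPM in erythroid cells, and 5.88 CPM in mature B cells. B progenitors and mature B cells thus ran in opposite order for Bcl2 and Bcl2l1, mature B cells holding 0.0799 of the B progenitor level of Bcl2l1 (0.045 to 0.132). Within the erythroid class of the control the level went from 8.42 CPM in early cluster 16, led by Car1, through 35.5 CPM in cluster 15 to 677 CPM in the late cluster 6.

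In the MYC library Bcl2l1 was below the control in all 7 classes tested and was called lower in erythroid cells, immature neutrophils and T or NK cells. Erythroid cells held 70.9 CPM in control cells and 38.0 CPM in MYC cells, with a log2 ratio of -0.90 (-1.09 to -0.71). The call was kept in all 17 alternative settings, but its size was not: the ratio was -2.69 where each library was clustered on its own, and between -1.18 and -0.83 in the other settings. Each erythroid cluster was lower on its own: 8.42 and 3.66 CPM in cluster 16, 35.5 and 22.4 CPM in cluster 15, and 677 and 296 CPM in cluster 6. The difference was thus present at each erythroid stage resolved here. Immature neutrophils had 16.2 and 10.1 CPM (-0.68), a call lost where each cell's CPM was averaged (-0.46), under median-of-ratios scaling (-0.47) and against genes of like length (-0.49). T or NK cells had 31.4 and 16.3 CPM (-0.94, -1.87 to -0.12), from 14 UMIs in the MYC library. That call was lost in 3 of 15 settings, at -0.74 (-1.72 to 0.14) with a 5% limit on mitochondrial UMIs, -0.71 (-1.54 to 0.04) with doublets kept and -0.55 (-1.48 to 0.27) where each cell's CPM was averaged. Not called were mature neutrophils (21.6 and 16.5 CPM), stem or multipotent progenitors (21.2 and 16.8 CPM), granulocyte progenitors (13.8 and 9.39 CPM) and monocytes (10.1 and 6.79 CPM). In several settings monocytes and granulocyte progenitors were called lower, at -0.73 and -0.61 with a 5% limit on mitochondrial UMIs. Too low to test were MHC class II-high cells (22 and 12 UMIs), basophils or mast cells (21 and 9) and mature B cells (16 and 3). Megakaryocytes, with 57 and 61 cells, had 98 and 35 UMIs, or 265 and 118 CPM (-1.16, -1.76 to -0.59). Over the 18 clusters with enough UMIs the log2 ratio was below 0 in each, from -1.20 to -0.08.

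The Bcl2a1 genes encode A1, a survival protein induced in activated leukocytes, and lie within one stretch of chromosome 9: Bcl2a1d at 88723285 to 88731914 (minus strand), Bcl2a1a at 88956900 to 88962419 and Bcl2a1b at 89199209 to 89207827 (both plus strand). The genes are nearly copies of each other, around the start as well as in the transcript, and a stretch before the RefSeq starts is printed to show it. It covers bases -100 to -1 from the RefSeq start in Bcl2a1a and Bcl2a1d and -144 to -45 in Bcl2a1b. The gene coordinates given here are those of GENCODE, whose starts lie further upstream, so the stretch reaches into each annotated gene at its 5′ end, away from where a 3′ kit reads. The 3 sequences come from the RefSeq promoter table of GRCm38.p6, at chr9:88956820-88956919 (Bcl2a1a, plus strand), chr9:89199129-89199228 (Bcl2a1b, plus strand) and chr9:88731851-88731950 (Bcl2a1d, minus strand). Capitals mark the positions that are not the same in all 3.
Bcl2a1a: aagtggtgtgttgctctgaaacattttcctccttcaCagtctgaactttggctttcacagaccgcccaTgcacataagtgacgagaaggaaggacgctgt
Bcl2a1b: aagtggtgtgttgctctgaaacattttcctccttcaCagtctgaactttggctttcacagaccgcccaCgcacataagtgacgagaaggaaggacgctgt
Bcl2a1d: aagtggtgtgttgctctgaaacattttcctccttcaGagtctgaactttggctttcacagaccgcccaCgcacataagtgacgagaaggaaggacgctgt
Counted from 1 at the 5′ end of the stretch, and with the base of Bcl2a1a first, Bcl2a1b differs by T69C and Bcl2a1d by C37G and T69C. How a short read can be assigned depends on the transcripts. Of the 90-base windows in the last 500 bases of the transcripts, where a 3′ kit reads, 39.7% in Bcl2a1a, 39.4% in Bcl2a1b and 65.2% in Bcl2a1d occur unchanged in another of the 3 genes. Counts of the single genes are therefore uncertain, and the sum of the 3 is given first. Bcl2a1d also lies antisense to the feature Gm10634, and in the GENCODE annotation the protein-coding gene Gm29094 overlaps Bcl2a1b on the same strand.

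Summed over the 3 genes, A1 was by far a macrophage transcript in the MYC library, at 656 CPM, with 2629 of that library's 3456 UMIs. The 19 control macrophages held 33 UMIs, or 302 CPM (208 to 424). Nonclassical monocytes followed with 142 CPM in control cells and 223 CPM in MYC cells, and then MHC class II-high cells with 75.7 and 93.02 CPM, where T or NK cells of the MYC library, at 98.0 CPM, had an overlapping interval. Over all kept cells the sum was 5.65 and 33.6 CPM, a log2 ratio of 2.57, and without macrophages the log2 ratio was 0.64. Mature neutrophils, which are known to use A1, held only 3.57 and 4.74 CPM.

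Among the compared classes the A1 sum was called higher in 4. T or NK cells had 82 and 84 UMIs, or 29.6 and 98.0 CPM, a log2 ratio of 1.73 (1.27 to 2.18), the largest of the 4. Mature B cells had 27.2 and 44.5 CPM (0.71, 0.05 to 1.33). Granulocyte progenitors had 21 and 40 UMIs (1.11), and immature neutrophils 23 and 67 UMIs (1.46). The smaller of these fell below 1.5-fold in single settings: mature B cells were at 0.35 against genes of like length, and granulocyte progenitors at 0.57 at a Leiden resolution of 0.5. With each cell classified by markers alone, mature B cells were at 1.56. Bcl2a1b, the only one of the 3 genes called on its own, was higher in T or NK cells (23.8 and 79.3 CPM), mature B cells (17.6 and 37.3 CPM) and immature neutrophils (0.71 and 1.67 CPM). Bcl2a1a and Bcl2a1d each reached 50 UMIs in only 2 compared classes and were not called there. In MHC class II-high cells Bcl2a1a was at 18.05 and 18.04 CPM and Bcl2a1d at 15.04 and 23.7 CPM. In the other compared classes Bcl2a1a was at most 2.87 CPM, and Bcl2a1d was at 6.98 and 4.30 CPM in mature B cells and 5.78 and 17.5 CPM in T or NK cells, from 19 UMIs or fewer each. Too low to test was Bcl2a1b in stem or multipotent progenitors (2 and 1 UMIs), granulocyte progenitors (15 and 22), erythroid cells (4 and 13) and basophils or mast cells (2 and 1). In T or NK cells 0 of 82 and 1 of 84 UMIs of the sum were assigned to Bcl2a1a, against 25.5% in all cells of the MYC library.

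Macrophage RNA moved with some of these counts. C1qa, C1qb and C1qc, which macrophages express, summed to 2.03 CPM in immature neutrophils of the control and 13.2 CPM in those of the MYC library. At the ratio of A1 to these C1q genes in macrophages of the MYC library, stray macrophage RNA would supply 61.9% of the A1 level of immature neutrophils and 98.8% of that of erythroid cells in the MYC library. It would supply 13.6% in mature B cells and 3.28% in T or NK cells. With this amount taken off the sum, 0.75 and 1.06 CPM were left in immature neutrophils and 26.7 and 38.4 CPM in mature B cells, under 1.5-fold apart in both classes. In mature neutrophils 2.79 and 1.44 CPM were left, so that the order turned, and T or NK cells kept 29.1 and 94.8 CPM. Taken off gene by gene instead, with no gene let below 0 and CPM computed on the UMIs left, the log2 ratio of the sum was 0.69 in immature neutrophils, 0.54 in mature B cells and -0.73 in mature neutrophils. In that setting Bcl2a1b was no longer called in immature neutrophils (0.53), and in mature neutrophils it turned from 0.22 to -1.03 and was called lower. No direction is therefore given for A1 in mature neutrophils, and the difference in immature neutrophils depends on this setting. The 8 macrophage markers summed to 20.9 and 36.2 CPM in T or NK cells and 22.8 and 64.6 CPM in mature B cells. In MHC class II-high cells, which express C1q genes at 1093 and 790.4 CPM, the same ratio would give 190% and 112% of their A1 level, so it was not applied there.

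Bax (ENSMUSG00000003873, chromosome 7, 45461697 to 45466898, minus strand), the pore former, was the member with the most uniform difference, called higher in the MYC library in 10 of 10 classes. In stem or multipotent progenitors its level was 52.2 CPM in control cells and 86.9 CPM in MYC cells (log2 ratio 0.74, 0.472 to 1.001), and in granulocyte progenitors 58.7 and 97.5 CPM (0.73). In neutrophils it was 17.7 and 36.4 CPM at the immature stage (1.04) and 8.74 and 21.9 CPM at the mature stage (1.33, 1.06 to 1.60). Monocytes had 83.0 and 158.6 CPM (0.93) and MHC class II-high cells 69.7 and 126 CPM (0.86). In the GENCODE annotation the protein-coding gene Gm45808 overlaps Bax on the same strand, so reads from the shared part cannot be told apart. The myeloid classes all moved in one direction, from the lowest Bax level (mature neutrophils) to the highest (monocytes).

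Mature B cells held 43.0 and 74.6 CPM of Bax (0.79), and T or NK cells 39.7 and 106 CPM (1.42, 1.002 to 1.833). Erythroid cells held 45.3 and 116 CPM (1.36, 1.22 to 1.49), and basophils or mast cells 58.6 and 126 CPM (1.11). Classes outside the comparison had the same sign, such as plasma cells at 26.2 and 75.6 CPM and plasmacytoid dendritic cells at 30.01 and 95.96 CPM. By cluster, Bax was above the control in 23 of 23 clusters with enough UMIs and called higher in 21, with log2 ratios from 0.56 to 1.91. For Bax 11 of 13 neighbouring classes in the control order had overlapping intervals, monocytes and MHC class II-high cells at the top among them, so that the order is loose except at its lower end, where plasma cells, immature neutrophils and mature neutrophils stood apart. The 2 clusters not called were cluster 5, an unnamed cluster of low-UMI barcodes, and cluster 2 of the mature neutrophils (0.82, -0.16 to 1.70). At the ratio set by neutrophil marker genes, stray neutrophil RNA would supply at most 3.87% of the Bax level in the 7 compared classes outside that lineage. For Mcl1, which neutrophils hold at a high level, the share was up to 19.9%, in erythroid cells of the MYC library, against 12.5% in those of the control. It was up to 15.7% for both Bcl2l1 and Bcl2l11, 13.1% for Bbc3 and 55.3% for Pmaip1, each in a class where that gene was too low to test. With this RNA taken off, all 17 calls in the 7 classes were kept.

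The BH3-only gene Bbc3 (ENSMUSG00000002083, chromosome 7, 16308393 to 16318205, plus strand), whose product PUMA is induced by p53, was above the control in all 8 classes tested and called higher in 3. The sign turned in some settings in 3 classes without a call, down to -0.13 in stem or multipotent progenitors, -0.27 in basophils or mast cells and -0.36 in MHC class II-high cells. Erythroid cells had the largest increase of any tested pair, with 148 UMIs and 6.70 CPM in control cells against 226 UMIs and 30.4 CPM in MYC cells, a log2 ratio of 2.18 (1.87 to 2.49). It was higher in each erythroid cluster, at 4.81 and 20.5 CPM in cluster 16, 7.94 and 32.1 CPM in cluster 15 and 7.002 and 70.88 CPM in the late cluster 6. Granulocyte progenitors had 16 and 46 UMIs, or 1.47 and 4.80 CPM (1.70, 0.86 to 2.62). Immature neutrophils had 2.25 and 5.67 CPM (1.33, 0.86 to 1.83). With a 5% limit on mitochondrial UMIs the ratio in granulocyte progenitors was 2.36. Mature neutrophils, where the control level was already 6.40 times that of granulocyte progenitors, had 9.43 and 12.4 CPM (0.40, not called). Classes below the control were found among those not compared or too low to test. Megakaryocytes had 30 and 5 UMIs in 57 and 61 cells. Mature B cells had 23 and 4 UMIs, or 8.46 and 5.74 CPM (-0.56, -2.55 to 0.99), T or NK cells 21 and 5 UMIs, or 7.58 and 5.83 CPM (-0.38, -2.14 to 1.07), and macrophages 2 and 62 UMIs (-0.24, -2.16 to 2.83).

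Bax and Bbc3 are the members whose promoter windows (250 bases before to 50 after a RefSeq start) hold the letters CACGTG, the E-box that MYC with its partner MAX is known to bind. The 100 bases before 1 start of each are printed from the RefSeq table of GRCm38.p6, chr7:45466899-45466998 on the minus strand for Bax and chr7:16310331-16310430 on the plus strand for Bbc3, with the E-box in capitals.
Bax: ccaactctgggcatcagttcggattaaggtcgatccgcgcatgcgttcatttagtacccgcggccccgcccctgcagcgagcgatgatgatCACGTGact
Bbc3: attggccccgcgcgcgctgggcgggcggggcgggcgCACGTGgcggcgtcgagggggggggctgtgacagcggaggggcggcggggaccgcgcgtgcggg
CACGTG reads the same on both strands. It was found in 2 of the 14 windows of the 9 members with a window and in 7.15% of all 32851 windows in the table. Searched on both strands, the NF-kB motif, by name, was in 2 member windows (Bcl2l1 and Bbc3) and 4.51% of all windows, and the FOXO letters TGTTTAC were in 2 (Bcl2l11 and Bbc3) and 3.65%. The p53 half-site, by name, was in 1 (Bax) and 8.36%, TTCNNNGAA was in 0 and 8.30%, and the GC-box GGGCGG was in 11 and 35.7%. A full p53 site was not searched for. These matches describe letters in the windows and were not tied to binding by any measurement here.

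Bcl2l11 (ENSMUSG00000027381, chromosome 2, 128126038 to 128162547, plus strand), whose product BIM is needed for the removal of lymphocytes and granulocytes, moved opposite to Bax and Bbc3. It was highest in T or NK cells (73.6 CPM in control cells and 43.2 CPM in MYC cells) and was called lower in 5 of 9 classes tested. Erythroid cells held 690 and 90 UMIs, or 31.2 and 12.1 CPM, a log2 ratio of -1.37 (-1.70 to -1.05), which was kept in all 17 alternative settings. The early clusters carried it, with 40.6 and 11.3 CPM in cluster 16 and 28.1 and 13.3 CPM in cluster 15, while the late cluster 6 had only 9 and 6 UMIs, or 5.73 (2.62 to 10.9) and 9.25 CPM (3.39 to 20.1), too few to give a direction. T or NK cells (-0.77), granulocyte progenitors (10.8 and 5.74 CPM, -0.91) and immature neutrophils (16.2 and 10.7 CPM, -0.60) were also called lower. The call in granulocyte progenitors was lost in 3 of 14 settings, at -0.46 at a Leiden resolution of 0.5, -0.41 with each cell classified by markers alone and -0.41 against genes of like length. That in immature neutrophils was lost in 7 of 15, with ratios from -0.56 to -0.20. Basophils or mast cells, with 15 and 6 UMIs, were too low to test. Monocytes were the exception among the classes tested, at 25.2 and 27.5 CPM (0.13, -0.05 to 0.30).

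Mature neutrophils also had less Bcl2l11, at 18.3 and 9.86 CPM (-0.89), but the class was made up of different clusters in the libraries. Cluster 0 held 1564 control and 130 MYC library cells, cluster 1 held 1532 and 1379, cluster 2 held 930 and 117, and cluster 3 held 276 and 1820. Within them Bcl2l11 was 20.1 and 13.7 CPM in cluster 0, 6.68 and 6.75 CPM in cluster 1, 50.8 and 35.0 CPM in cluster 2, and 16.6 and 11.2 CPM in cluster 3. It was called in none of the 4 clusters, and in cluster 1, the only one with over 1000 cells in each library, the log2 ratio was 0.016 (-0.54 to 0.57). For Bax the same 4 clusters gave 7.11 and 23.9, 7.48 and 22.5, 17.4 and 30.6, and 5.53 and 20.8 CPM, in the same order.

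**Figure D3:**
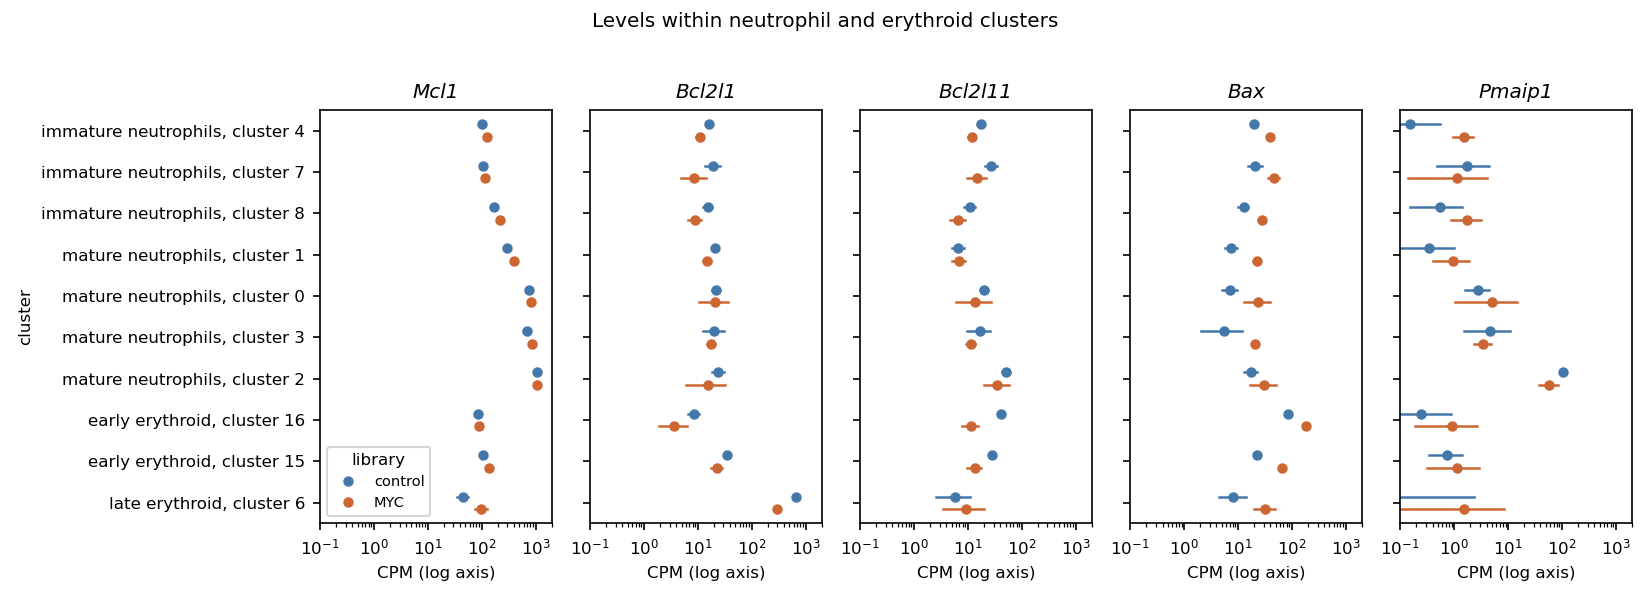
Level in CPM (log axis, 95% counting intervals) of Mcl1, Bcl2l1, Bcl2l11, Bax and Pmaip1 in the control and the MYC library. The clusters drawn are those of immature neutrophils, mature neutrophils and erythroid cells. Intervals that reach below 0.1 are drawn from 0.1. Among the 4 clusters of mature neutrophils, Pmaip1 is concentrated in cluster 2 (104 and 56.9 CPM), while Bax is above the control in each.

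Pmaip1 (ENSMUSG00000024521, chromosome 18, 66458533 to 66465565, plus strand), whose product NOXA binds MCL1 and A1, was the member with calls in both directions. Mature neutrophils had 317 UMIs among control cells and 68 among MYC cells, or 16.9 and 3.66 CPM, a log2 ratio of -2.21 (-2.60 to -1.82). Cluster 2 alone held 292 of the 317 and 26 of the 68 UMIs, at 104 and 56.9 CPM (-0.87), and its cells numbered 930 and 117. Cluster 2 was led by Il1b, Ptgs2 and the interferon-induced gene Ifit1, and Mcl1 was also highest there. Cluster 1 held only 3 and 8 Pmaip1 UMIs (0.35 and 0.95 CPM), too few to give a direction (log2 ratio 1.46, -0.60 to 4.01). MHC class II-high cells held 64.7 and 37.8 CPM (-0.78, -1.22 to -0.34). Granulocyte progenitors had 18 and 37 UMIs (1.22, 0.37 to 2.12), a call lost with a 5% limit on mitochondrial UMIs (1.05, -0.005 to 2.24). Monocytes had 5.98 and 8.85 CPM (0.56, not called), with cluster 12 at 2.85 and 7.23 CPM and cluster 11 at 12.003 and 13.149 CPM. Basophils or mast cells had 5 and 42 UMIs, which together fell below the minimum of 50. The other classes were also too low to test, at 1.89 and 1.98 CPM in stem or multipotent progenitors, 0.44 and 1.54 CPM in immature neutrophils, and 10.7 and 10.04 CPM in mature B cells. T or NK cells had 11 and 6 UMIs and erythroid cells 11 and 8.

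Within a class the calls of survival and death genes can be set side by side. In erythroid cells Bcl2l1 was lower and Bbc3 and Bax higher, while Bcl2l11 was lower and Mcl1 was at 93.2 and 113 CPM (0.28, not called). In T or NK cells Bcl2l1 (in 12 of 15 settings) and Bcl2l11 were lower, Bax and Bcl2a1b higher, and Bcl2 was at -0.55. In stem or multipotent progenitors Bcl2 was lower and Bax higher, Mcl1 was at 98.2 and 108 CPM, and Bbc3 at 12.3 and 17.8 CPM (0.54, -0.04 to 1.12). Basophils or mast cells likewise had Bcl2 lower and Bax higher and no other call. Death genes were thus called in both directions in erythroid cells and in T or NK cells. The same held in granulocyte progenitors, both neutrophil classes and MHC class II-high cells, where Bax was higher and Bcl2l11, Pmaip1 or both were lower. Survival genes were called in both directions in T or NK cells and in immature neutrophils (Bcl2a1b higher, Bcl2 and Bcl2l1 lower). In stem or multipotent progenitors and in basophils or mast cells the survival gene called was lower and the death gene higher. Monocytes had only Bax called, and mature B cells Bax and Bcl2a1b, all higher. Neither library's cells were scored for death, so these are levels of transcripts only.

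Transcript length moved with the ratios of all genes and of these members. In each of the 10 classes genes whose longest transcript was at most 1000 bases had a median log2 ratio between 0.26 and 0.55, and genes over 8000 bases a median between -0.60 and -0.22. The 80 to 82 ribosomal protein genes tested, which are short, had class medians from 0.39 to 0.98, while the median of all genes lay between -0.29 and -0.03. Bax has a short longest transcript (1100 bases) and Bcl2 and Bcl2l11 long ones (7191 and 5036 bases), with Bbc3 at 1814, Bcl2l1 at 2568, Pmaip1 at 2727 and Mcl1 at 3418. Set against the median gene of like length, 18 of the 31 calls were kept, 13 were lost and 1 was gained (Pmaip1, higher in monocytes).

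Bax stayed above its length median in 10 of 10 classes, by 0.50 to 1.22 on the log2 scale, at percentiles 83.8 to 98.5 of genes of like length, and its calls in stem or multipotent progenitors, granulocyte progenitors and MHC class II-high cells were lost. Bbc3 in erythroid cells was at percentile 99.1, Bcl2l11 there at 1.42 and Bcl2l1 there at 5.08. Bcl2 in stem or multipotent progenitors was at percentile 4.20 and kept its call, while its calls in immature neutrophils, mature neutrophils and basophils or mast cells were lost. Bcl2l11 lost its calls in granulocyte progenitors, both neutrophil classes and T or NK cells, Bcl2l1 in immature neutrophils, and Bcl2a1b in immature neutrophils and mature B cells. The part of transcript length in the members' ratios was not tested.

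**Figure D4:**
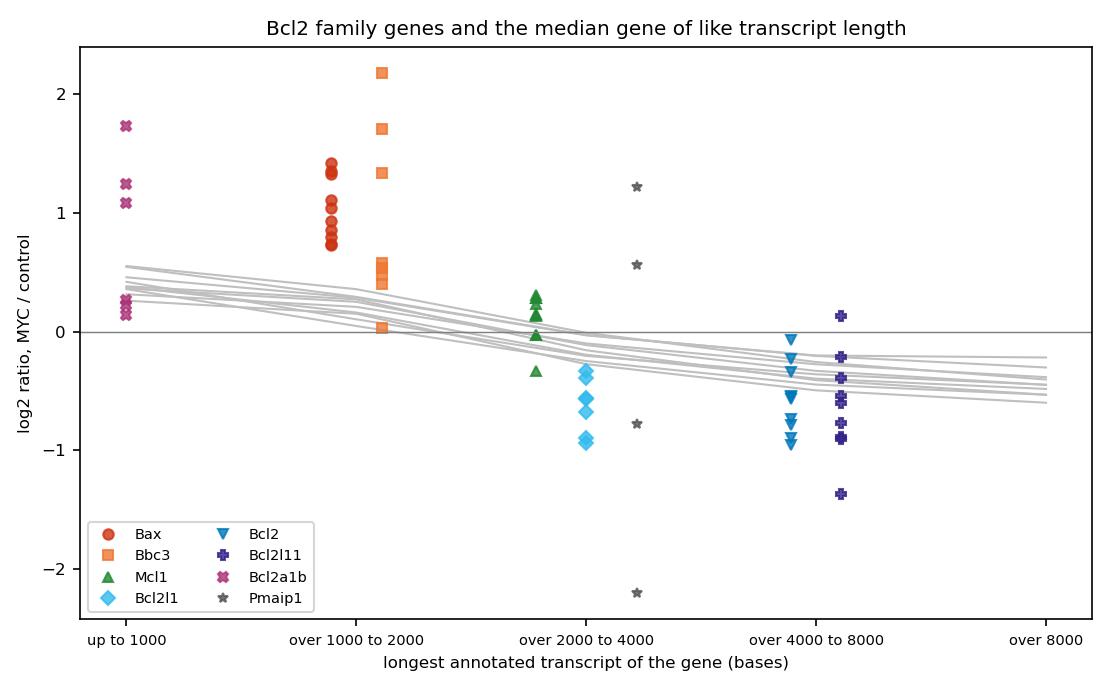
Median log2 ratio of all genes by the length of the longest transcript in each of the 10 classes (lines) and the log2 ratio of the members at their own length (points). Short genes lie above 0 and long genes below in each class, and Bax points lie above the lines.

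Members differed in barcodes with at least 10% mitochondrial UMIs, which were left out of the classes (1475 and 1592). Per nuclear-encoded UMI, Bcl2 was 3.38 times (3.03 to 3.76) its level in kept cells in the control and 3.92 times (3.45 to 4.44) in the MYC library, and Bcl2l11 was 1.64 and 1.98 times. Mcl1 was at 0.93 and 0.98 of the kept level and Bax at 0.79 and 0.71. Pmaip1 differed between libraries, at 0.66 (0.35 to 1.13) in the control and 2.35 (1.73 to 3.12) in the MYC library. So did Bcl2l1, at 0.92 (0.73 to 1.15) in the control and 1.69 (1.33 to 2.12) in the MYC library. The filter thus removed proportionally more Bcl2 and less Bax in both libraries.

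Genes whose levels followed a member most closely were ranked by Pearson correlation over 20 points, 10 classes in each of 2 libraries, among 8884 genes. The points share libraries and cell lineages, so the values are descriptions. The Mcl1 pattern was closest to Rara (0.94), Ier5 (0.94) and Fos (0.92), and that of Bcl2 to Gpr171 (0.96), Plcg1 (0.95) and Rnf138 (0.94). Bax was closest to Rpl10 (0.97), Psmb1 (0.97) and Commd4 (0.96). Bcl2a1b was closest to Bcl2a1d (0.97), Traf1 (0.93) and Slamf7 (0.92), and Bcl2a1a to Cadm1 (0.96), C1qc (0.94) and Spic (0.93). The best matches of Bcl2l1 (Josd1, 0.86), Pmaip1 (Cd86, 0.84), Bcl2l11 (Unc119b, 0.83) and Bbc3 (Arl3, 0.77) were looser.

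The rest of the death machinery was followed in 39 other genes in 4 groups, giving 294 tested pairs of a gene and a class, 20 (6.80%) called higher and 47 (15.99%) lower. By class, 4.25% to 14.5% of all genes were called higher and 8.6% to 24.2% lower, so these shares lie within the background. The 14 other family members had 7 higher and 4 lower of 71 pairs (9.86% and 5.63%, the latter below the background; median log2 ratio -0.05), where class medians of all genes lay between -0.29 and -0.03, with Bad, a BH3-only gene, called higher in 5 of 8 classes. Bad was 31.1 and 47.7 CPM in granulocyte progenitors and 14.2 and 24.2 CPM in erythroid cells. The 12 apoptosome and caspase genes had 8 higher and 23 lower of 113 (7.08% and 20.4%, within that background, with a median of -0.34). Apaf1, the scaffold of the apoptosome, was lower in 6 of 10 classes, for example 79.7 and 42.4 CPM in immature neutrophils, and Xiap, a caspase inhibitor, in 6 of 10, for example 122 and 70.0 CPM in monocytes.

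The 7 death receptor genes had 1 higher and 5 lower of 50 pairs (2% and 10%, no more than the background in either direction, with a median of -0.21), including Fas in mature B cells (23.5 and 10.0 CPM). The 6 genes that control the amount of BCL2 family proteins had 4 higher and 15 lower of 60 (6.67% and 25%, the latter above the range of the background, with a median of -0.36). All 4 higher calls were Trp53, which encodes p53, an activator of Bax, Bbc3 and Pmaip1, as in immature neutrophils (20.55 and 33.05 CPM). Usp9x, whose product stabilises MCL1, was lower in 8 of 10 classes, as in erythroid cells (129 and 72.0 CPM), and Foxo3, an activator of Bcl2l11 and Bbc3, in 4 of 10, including erythroid cells (117 and 64.2 CPM). Unlike the members, none of these other death genes was set against genes of like transcript length.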

How the data were processed

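Single cells of mouse bone marrow were captured with a droplet 3′ kit, per the labels' protocols, in 1 library per genotype. The deposited values are whole-number counts (UMIs per gene and barcode), and per the file headers the authors used Cell Ranger 6.0.0; GRCm38 and Seurat are named in the submitters' processing notes. Cells with at least 500 UMIs, 200 genes and under 10% mitochondrial UMIs were kept. Doublets were removed with Scrublet at its automatic threshold (701 and 251 cells, or 4.53% and 1.95%, below the 13.7% and 11.6% that 0.8% per 1000 barcodes would give), so doublets remain. Leiden clusters (scanpy 1.11.5, resolution 1, 15 neighbours, 30 components of 2000 variable genes, without the members and listed genes) were named from marker lists. The depth was 131884603 and 110012176 UMIs.

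UMIs were summed per class and library, and ratios and exact intervals computed with scipy 1.17.1. The call rule was run on erythroid counts simulated from a Poisson model, which the intervals also assume. With no simulated difference, 0.34% of genes were called higher and 0.46% lower. The simulation held no variation between libraries or animals, so it checks the computation of the rule only. Genes were matched to GENCODE vM21 by identifier (32158 of 32286, all 10 members). Members too low to call in a class are given by UMIs or level where they are named. Of other genes at most 2 per direction and class are named, with genes called in several classes given by their counts. Members and lists were chosen with earlier results of these data known.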

Additional observations from a re-analysis of the deposited data

How the results depend on the processing

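With 1 library per genotype no library could be left out, and no paired analysis was possible because each group holds 1 library. Against 17 higher and 14 lower pairs, requiring 200 UMIs left 10 higher and 10 lower of 41 tested, a fold of 2 left 12 higher and 2 lower, and a looser fold threshold gave 20 higher and 22 lower. Set against genes of like transcript length, 13 were higher and 6 lower. The shares of all genes called at those other thresholds, or against genes of like length, are not given. Those alternative counts therefore have no background here. In mature neutrophils of cluster 1 alone, the log2 ratios of Bcl2l11 (0.016) and Pmaip1 (1.46) were above 0, neither of them called, the latter from 3 and 8 UMIs with an interval of -0.60 to 4.01. The settings on length, macrophage RNA, single clusters and macrophages left out were chosen after seeing the data. Bax stayed above 0 in every class and setting that gave it a value, and the calls of Bcl2l1, Bcl2l11, Bax and Bbc3 in erythroid cells were kept in all 17. Bcl2l11 in immature neutrophils was called in 8 of 15 settings and Bcl2 in mature neutrophils in 10 of 15. Pairs with fewer than 50 UMIs, 32 of 100, were too shallow to call. The MYC feature's sequence is not given in the sources used here.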
